A study of Mus musculus with 8 samples.

Results

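The embryonic shared regions are stretches of the mouse genome that were accessible in both tissues of the embryonic lens, the epithelium and the fibers, and that held no called peak in either tissue at birth. They were chosen by the measured peak calls themselves. The 4 deposited peak lists were merged at a distance of 10 bp on chromosomes 1 to 19 and X, and a merged region was kept when it held a peak of both E14.5 lists and none of either P0.5 list. Of 185247 merged regions, 21158 met this rule, which is 11.4% of all regions and 34.5% of the 61335 regions with a peak in both E14.5 lists. Accessibility was measured by ATAC-seq, in which the transposase Tn5 cuts open DNA and adds sequencing adaptors to it. Lenses of outbred CD1 mice were microdissected into epithelium and fibers in the embryo (E14.5) and just after birth (P0.5), and every group had 2 libraries. Each list was called by the authors on both libraries of its group together, with MACS2 and a q threshold of 0.05, so it carries neither replicate values nor read depth. The epithelial lists held 100003 peaks at E14.5 and 58592 at P0.5, and the fiber lists 123743 and 62995.

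The lens is built from a single lineage. Epithelial cells cover its front, divide, and at the equator leave the cell cycle and elongate into fibers, which make crystallins and later lose their nuclei and organelles. FGF, BMP and Wnt signals act on this step, and the factors Pax6, Sox2, Foxe3, Prox1 and Maf control lens genes. An accessible region away from a promoter often marks an enhancer, a sequence that transcription factors bind to control a gene at a distance. CTCF is a zinc finger protein that binds insulators and the anchors of chromatin loops.

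The lens label was checked against promoter peaks. Of 7 defining lens markers, Pax6, Foxe3, Pitx3, Cryaa, Cryab, Prox1 and Maf, each had a promoter peak in all 4 lists. Of 13 blood and macrophage markers, the epithelium had 4 with a promoter peak at E14.5 and 2 at P0.5, and the fibers 3 and 2. For 10 retinal pigment and melanocyte markers the counts were 4 and 5 in epithelium and 5 and 2 in fibers. For 13 endothelial markers they were 12 and 10 in epithelium and 11 and 7 in fibers, and for 15 periocular mesenchyme markers 12 and 11 in epithelium and 12 and 9 in fibers. Retina and neural markers, 15 in all, had 13 and 10 in epithelium and 13 and 12 in fibers, 13 surface ectoderm markers 8 and 8, and 8 and 7, and 10 skeletal muscle markers 5 and 4, and 8 and 6. Over whole lens lists, all 21 transcription factors had a promoter peak in every list, 16 crystallins had 13 and 10 in epithelium and 16 and 15 in fibers, and 15 lens fiber proteins had 13 at both stages in epithelium and 14 and 13 in fibers. As a background, the share over all 20923 genes was 70.5% at E14.5 and 67.2% at P0.5 in epithelium. In fibers it was 71.4% and 64.8%. A count near or above this background does not show which cell types were present. Promoters of silent genes are often open in ATAC-seq, and the part of other cell types in the regions was not tested.

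The sequences around the summits of several strong embryonic shared regions are shown. Of these regions, 5 are among the 10 strongest, and 2 are the strongest with a Gata or a Runx match within 50 bp of the summit. Each sequence is 120 bp of the plus strand of GRCm38 (mm10), read from RefSeq and centred on the summit in E14.5 epithelium. It is named by the nearest protein-coding gene. Capitals mark matches on either strand to the Homeobox, Gata, Runx, Sox, Maf and Tead motifs described further on.
Nfe2l3, chr6:51172968-51173087: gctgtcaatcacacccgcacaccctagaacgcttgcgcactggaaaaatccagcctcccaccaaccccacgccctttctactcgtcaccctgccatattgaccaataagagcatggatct
Cwc22, chr2:77910482-77910601: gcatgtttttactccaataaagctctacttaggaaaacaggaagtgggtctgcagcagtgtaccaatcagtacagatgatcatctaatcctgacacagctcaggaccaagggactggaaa
Coro2b, chr9:62510637-62510756: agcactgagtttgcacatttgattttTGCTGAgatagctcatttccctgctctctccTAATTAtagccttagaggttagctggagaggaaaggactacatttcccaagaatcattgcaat
Dach1, chr14:97444317-97444436: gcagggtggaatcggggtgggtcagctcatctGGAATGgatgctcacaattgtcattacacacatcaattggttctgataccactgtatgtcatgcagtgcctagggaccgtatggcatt
Rngtt, chr4:33396633-33396752: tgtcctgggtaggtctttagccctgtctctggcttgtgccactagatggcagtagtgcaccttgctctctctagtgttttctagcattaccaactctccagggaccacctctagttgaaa
Slc30a5, chr13:101233535-101233654: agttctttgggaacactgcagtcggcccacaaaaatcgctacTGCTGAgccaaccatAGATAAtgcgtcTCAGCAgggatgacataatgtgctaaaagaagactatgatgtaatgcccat
Nsmaf, chr4:6514899-6515018: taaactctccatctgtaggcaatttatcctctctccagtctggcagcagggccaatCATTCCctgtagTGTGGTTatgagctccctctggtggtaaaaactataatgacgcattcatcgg
The Coro2b sequence is also that of the strongest region with the Homeobox motif TAATTA within 50 bp of its summit, and it holds a Maf match TGCTGA upstream of it. Within the same 50 bp, the Slc30a5 region is the strongest with the Gata motif AGATAA, which stands between 2 Maf matches. The Nsmaf region is likewise the strongest with the Runx motif TGTGGTT, which follows a Tead match on the other strand.

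The strength of the peaks was part of the rule through the peak calls, so it is given as a description. MACS2 gave each peak a −log10 q value and a fold enrichment, the height of the peak over its surroundings as a ratio. The strongest peak of an embryonic shared region in E14.5 epithelium had a median −log10 q of 5.53 (quartiles 3.83 and 10.4) and a median fold enrichment of 4.98. In E14.5 fibers the medians were 7.89 (quartiles 4.63 and 16.6) and 5.34. The 20106 regions called in all 4 lists had medians of 65.7 and 99.4 for −log10 q and of 22.6 and 26.1 for fold enrichment, so most embryonic shared regions were far weaker than the regions that stayed open. Both classes reached down to the same lowest values. The lowest −log10 q of a peak was 1.62 in epithelium and 1.35 in fibers.

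The share of regions without a P0.5 peak fell steadily with strength. When the 61335 regions with both E14.5 peaks were ordered by the weaker of their E14.5 −log10 q values and cut into 10 bins, 68.5% of the lowest bin were embryonic shared regions. The share was 41.2% in the bin from 7.89 to 10.4, 8.69% in the bin from 25.5 to 46.1, and 0.509% (31 of 6086) in the bin from 46.8 to 126. Of the 6115 regions above that, 0 were embryonic shared regions. In the middle bins the P0.5 epithelium kept a peak more often than the P0.5 fibers did. In the bin from 10.6 to 15.5, 40.9% of regions kept the epithelial peak alone at birth and 6.30% the fiber peak alone.

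**Figure D1:**
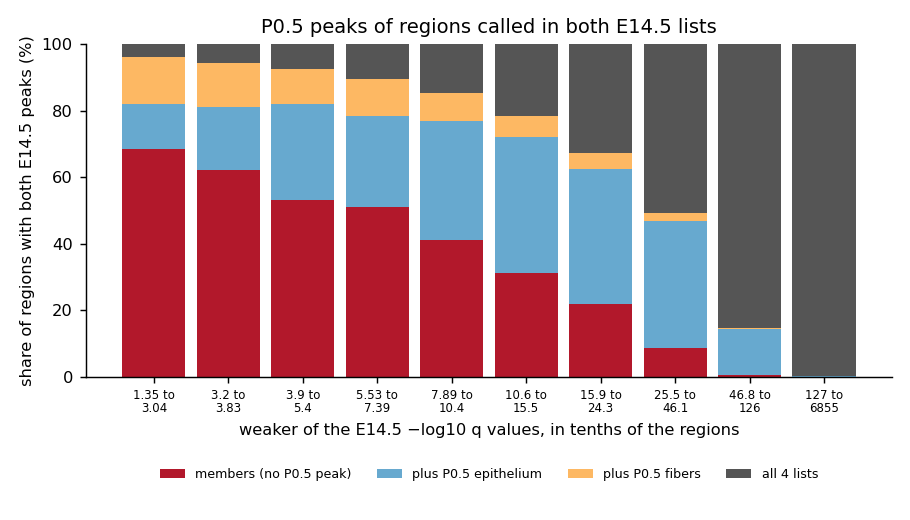
Share (%) of the 61335 regions called in both E14.5 lists that held no P0.5 peak (red, the embryonic shared regions, named members in each plot), a peak of P0.5 epithelium only (blue), of P0.5 fibers only (orange) or of both (grey), in 10 bins of the weaker E14.5 −log10 q, whose ranges stand under the bars. The red part falls from 68.5% in the lowest bin to 0 in the highest, where 99.6% of regions were called in all 4 lists.

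The E14.5 lists were longer than the P0.5 lists, and the number of embryonic shared regions moved with the length of the lists. When each list was cut to its 58487 strongest peaks, 8384 regions met the rule, 20.9% of the 40065 regions that then held both E14.5 peaks. Of these 8384 regions, 8288 (98.9%) overlapped one of the 21158, and 39.2% of the 21158 overlapped one of the shorter set. The part of read depth in the class was not tested. Just inside the rule stood regions near Dst, Tgfbrap1 and Ecel1, each with a weaker −log10 q of 1.35 in fibers. Just outside it stood regions near B3gat2, Tex44 and Agap1, whose P0.5 peaks had a −log10 q of 1.33. Of the embryonic shared regions, 1391 (6.57%) had a weaker −log10 q under 2, 4210 (19.9%) one of at least 10, and 542 one of at least 25.

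The embryonic shared regions were narrow and mostly simple. Their median width was 348 bp (quartiles 253 and 508), against 1177 bp for regions in all 4 lists, and 95.6% held exactly 1 peak of each E14.5 list. They covered 8.89 Mb. The summits of the 2 tissues lay close together, at a median distance of 38 bp (quartiles 14 and 95), and 58.9% lay within 50 bp of each other. Regions in all 4 lists had a median of 27 bp, and 69.2% were within 50 bp. As a description of strengths that the rule limited to a narrow range, Spearman's rank correlation of −log10 q between epithelium and fibers was 0.529 across the 21158 embryonic shared regions, which share libraries and are not replicates.

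The absence of a P0.5 peak did not mean that the surroundings held none. The nearest P0.5 peak lay at a median of 3190.5 bp from an embryonic shared region. It lay within 1 kb for 25.4% of them, within 10 kb for 74.9%, and within 100 bp for 352 (1.66%). Without the regions that had a P0.5 peak within 1 kb, 15775 remained. The median distance to a region of all 4 lists was 16.6 kb, and to another embryonic shared region 12.5 kb.

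Location was not used by the rule. Embryonic shared regions lay mostly inside genes and away from promoters. Within 2 kb of a start site lay 2407 regions, 11.4% (95% Wilson interval 11 to 11.8), and 56.7% lay in gene bodies, 24.7% within 50 kb of a gene and 7.25% farther away. Of the regions in all 4 lists, 63.9% were at promoters, a difference of −52.6 percentage points (95% Newcombe interval −53.4 to −51.8). Weighted to the same 5 bins of peak strength, 36.0% of the constant regions were at promoters, and the difference was −24.6 points (−26.4 to −22.8). The highest bin had no upper limit. Embryonic shared regions in it ended at a weaker −log10 q of 96.5, and constant regions reached 6854.71, so the match was partial. Here and below, the same strength or GC content means the same bins, with open ends. The intervals count regions as independent and cover counting error only, since no replicate values stand behind the lists.

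Compared with regions called in a single embryonic tissue, the promoter share differed little. It exceeded that of the 23901 regions called only in E14.5 epithelium (10.5%) by 0.833 points (0.255 to 1.41) and that of the 54305 regions called only in E14.5 fibers (9.64%) by 1.74 points (1.25 to 2.24). With equal numbers of peaks, the difference from the fiber regions was 0.72 points (−0.057 to 1.51) and no longer stood apart from 0. When the place of the epithelial summit alone set the location, the difference from the epithelial regions was 0.223 points (−0.338 to 0.787). In the gene body share the embryonic shared regions stood between the tissues, at 56.7% against 53.7% for epithelium and 65.4% for fibers. The summit lay in an intron for 56.9% of embryonic shared regions, in a coding exon for 4.22% and in an untranslated or noncoding exon for 3.63%. The median distance to the nearest start site of a protein-coding gene was 26.4 kb, and 16.9% lay more than 100 kb away.

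**Figure D2:**
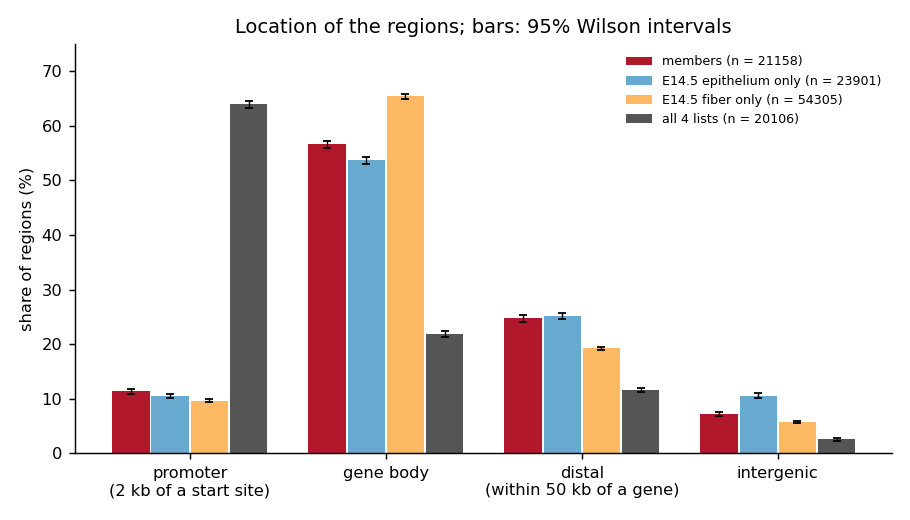
Share of regions (%) at promoters, in gene bodies, distal and intergenic, for embryonic shared regions, regions called only in E14.5 epithelium or only in E14.5 fibers, and regions in all 4 lists, with 95% Wilson intervals. The embryonic shared regions resemble the single-tissue regions, with 11.4% at promoters against 63.9% of the regions in all 4 lists.

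Of the regions with both E14.5 peaks on an autosome, between 30.7% (chromosome 7) and 36.7% (chromosome 13) were embryonic shared regions. On the X chromosome the share was lower by this count, at 27.7% (248 of 894), but higher by the count over all merged regions, at 13% (248 of 1910) against 11.4%.

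The DNA of the embryonic shared regions was less GC rich than that of constant regions. In the 200 bp around the summit the median GC content was 51.5% (quartiles 48.0 and 55.5), against 63.5% for regions in all 4 lists, 52.0% for epithelium only and 51.0% for fibers only. CpG islands, which cover most promoters of widely expressed genes, are dense in CG pairs. The CG pairs reached at least 0.6 of the number expected from base composition in 5.57% of embryonic shared regions and in 60.5% of constant regions. Outside promoters the shares were 4.42% and 20.9%, a difference of −16.4 points (−17.4 to −15.5). The share was higher than in the single-tissue regions, by 2.14 points (1.76 to 2.53) over epithelium only and by 2.61 points (2.28 to 2.96) over fibers only. Even at promoters CG-dense windows were few. Of the 2407 embryonic shared regions at promoters, 14.6% reached the level, against 82.8% of 12857 constant promoter regions. Windows that were at least 50% repeat-masked made up 2.46% of embryonic shared regions and 0.254% of constant ones, a difference of 2.21 points (1.99 to 2.43). They made up 4.06% of the regions only in epithelium and 4.04% of those only in fibers.

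The motifs were searched as plain letters on both strands in the 200 bp around the summit. The 26 motifs included 1 that is not reported here, and the others were Tead GGAATG, Maf TGCTGA, Sox ACAAAG, Pax6 TTCACGC, Nfat GGAAAA, Fox TGTTTAC, Runx TGTGGTT, Pitx TAATCC, RXR AGGTCA, Ap4 CAGCTG, AP-1 TGANTCA, Meis TGACAG, Ets CGGAAG, NF1 TTGGCA, CTCF AGGGGGC, Hsf TTCNNGAA, Homeobox TAATTA, E2F GGCGGGAA, Sp/Klf GGGCGG, Nrf1 GCATGCGC, Zeb CACCTG, AP-2 GCCNNNGGC, Myc CACGTG, the CCAAT-box motif CCAATCA and the Gata motif AGATAA. Ap4, Zeb and Myc are variants of the E-box, Homeobox and Pitx share TAAT, and E2F and Sp/Klf share GGCGG. A match is not a binding site.

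Against regions in all 4 lists, 17 of the 26 motifs were more frequent in embryonic shared regions and 9 were less frequent, each with an interval on 1 side of 0. The Homeobox motif, the core of many homeodomain factors, stood in 2.06% of embryonic shared regions, 0.716% of constant ones and 1.82% of all merged regions, a ratio of 2.88 to the constant ones. The Gata motif was found in 7.15%, against 2.65% of constant regions and 6.16% of all, a ratio of 2.70. The Runx motif was found in 4.34%, 2.17% and 3.86%. The Maf motif, bound by the large Maf factors that drive crystallin genes, was the most frequent, in 25.1% of embryonic shared regions, 15.8% of constant ones and 22.9% of all. The Sox motif was in 19%, 10.1% and 15.9%. The largest deficit was that of Sp/Klf, a motif of promoters, in 6.51% against 49.1%, with 10.8% of all regions. Ets followed, in 4.79% against 18%, and AP-2 in 9.14% against 21.6%.

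Most of these differences were smaller or of the other sign once location and base composition were matched. Outside promoters 13 motifs still stood above the constant regions. The Sox share was then 19.6% against 16%, a difference of 3.60 points (2.57 to 4.60). Gata differed by 2.87 points (2.25 to 3.46) and Maf by 1.58 points (0.40 to 2.74), while Tead, at 15.5% against 15.9%, did not stand apart (−0.40 points, −1.40 to 0.58). When the constant regions outside promoters were weighted to the GC bins of the embryonic shared ones, the Sox difference was −0.85 points (−2.40 to 0.69). The Maf difference was −0.47 points (−2.10 to 1.16) and the Gata difference 0.23 points (−0.82 to 1.29). The Homeobox and Runx differences were 0.0066 points (−0.61 to 0.62) and −0.53 points (−1.41 to 0.36). Tead was then less frequent (−3.73 points, −5.22 to −2.25), as were Pitx (−2.08 points, −3.23 to −0.93) and Sp/Klf (−5.06 points, −5.84 to −4.29). Ap4, at 1.82 points (0.49 to 3.15), and Zeb, at 1.5 points (0.46 to 2.54), were more frequent. Both had been less frequent outside promoters before GC content was matched, at −1.72 points (−2.84 to −0.61) and −1.49 points (−2.42 to −0.58), and over all regions at the same peak strength Zeb was at −5.06 points (−6.75 to −3.37). Over all regions, promoters included, GC matching left Maf more frequent, by 2.63 points (1.24 to 4.02).

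**Figure D3:**
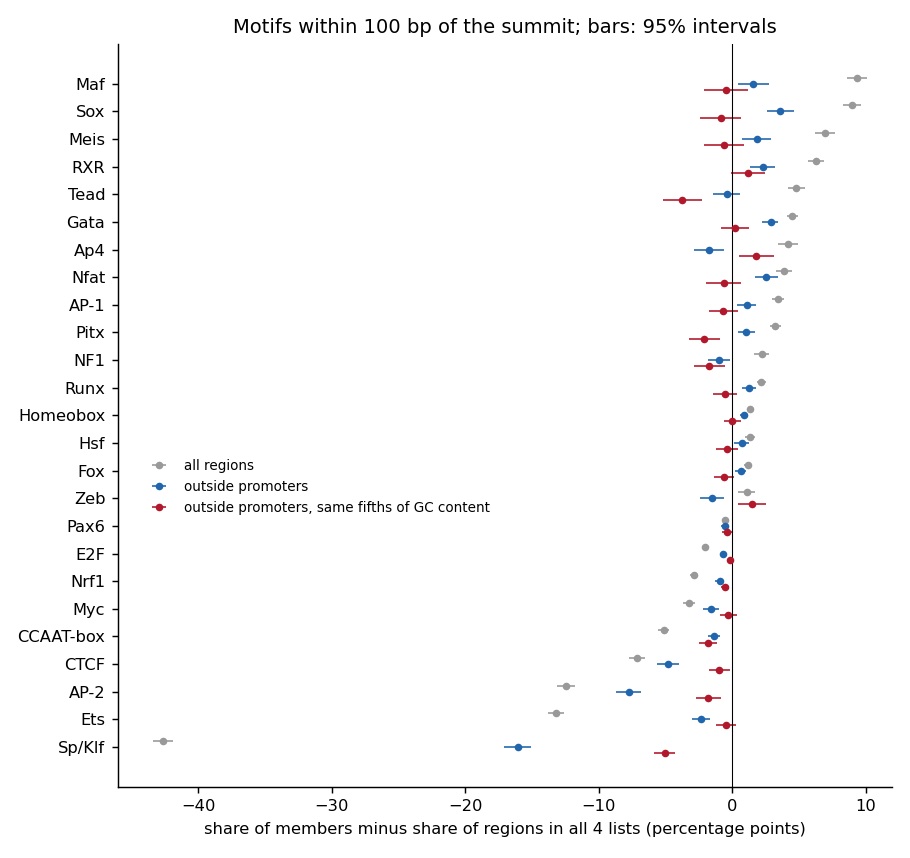
Share of embryonic shared regions with each motif minus the share of regions in all 4 lists, in percentage points with 95% intervals, for all regions (grey), outside promoters (blue), and outside promoters at the same GC content (red). The grey points run from −42.6 (Sp/Klf) to 9.35 (Maf), and most red points lie near 0, with Tead at −3.73.

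The single-tissue regions of the same stage have like base composition and gave a closer comparison in that respect. Their peaks were weaker, with a median −log10 q of 3.83 for epithelium only and 3.90 for fibers only, and strength was not matched. The Tead motif belongs to the Tead factors, which act with Yap1 in the Hippo pathway of the lens epithelium. It was in 15.2% of embryonic shared regions, below the 16.9% of regions only in epithelium (−1.69 points, −2.36 to −1.01) and above the 11.4% of regions only in fibers (3.78 points, 3.23 to 4.34). Maf ran the other way, at 25.1%, above epithelium only (20.4%) by 4.71 points (3.94 to 5.49) and below fibers only (27%; −1.87 points, −2.57 to −1.18). The embryonic shared regions therefore lay between the tissues for both motifs. Sox was in 15.6% of epithelium only, 17.9% of fibers only and 15.9% of the weakest of 5 strength bins of embryonic shared regions. Over all embryonic shared regions Sox was more frequent than in either, by 3.41 points (2.71 to 4.12) over epithelium and by 1.16 points (0.55 to 1.78) over fibers. Ap4 likewise exceeded both, by 2.01 points (1.29 to 2.74) and 2.55 points (1.93 to 3.18). Zeb, the E-box of the repressors Zeb1 and Zeb2, was less frequent than in both, with differences of −3.95 points (−4.60 to −3.29) and −1.84 points (−2.37 to −1.30).

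Regions that had both embryonic peaks and kept 1 tissue at birth formed the nearest comparison in time. The choice of this comparison, of the CTCF core below and of the split by strength was made after values had been seen. Outside promoters, 13310 regions kept only the epithelial peak and 3654 only the fiber peak. Tead was in 15.5% of embryonic shared regions and in 21.2% of those kept in epithelium, a difference of −5.69 points (−6.56 to −4.82). At the same strength and GC content the difference was −7.71 points (−8.82 to −6.61). Strength here was the weaker embryonic −log10 q, so the values of each tissue were not matched separately. With promoters included, the median of embryonic shared regions was lower in epithelium (5.53) than in fibers (7.89). In regions kept in epithelium it was higher in epithelium than in fibers. The Tead difference at equal epithelial strength was not tested. Against those kept in fibers (14.2%), Tead was higher by 1.34 points (0.07 to 2.56), but at the same strength and GC content it was −0.66 points (−2.47 to 1.15). Pax6, at 0.784% against 1.22% of those kept in epithelium, differed by −0.44 points (−0.67 to −0.22), and by −0.45 points (−0.74 to −0.16) at the same strength and GC content. AP-2 and NF1 were also less frequent than in regions kept in epithelium at the same strength and GC content, with differences of −2.62 points (−3.47 to −1.77) and −2.38 points (−3.26 to −1.50). Maf and RXR were more frequent there, by 2.49 points (1.34 to 3.64) and 2.47 points (1.56 to 3.39), and both were less frequent than in regions kept in fibers (−2.52 points, −4.68 to −0.35, and −2.18 points, −4.01 to −0.35).

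CTCF set the strong embryonic shared regions apart from the weak ones. The short motif AGGGGGC was in 6.4% of embryonic shared regions, more than in regions only in epithelium (4.70%) or only in fibers (3.34%), and less than in constant regions (13.5%). A longer core of the CTCF site, CCNNNAGNNGGC, was in 13.2% of embryonic shared regions (12.7 to 13.6) and 15.3% of constant regions. It was in 8.08% and 5.01% of the single-tissue regions and 8.61% of all merged regions. The single-tissue regions had weaker peaks, and strength was not matched against them. Outside promoters the core was less frequent than in constant regions (−5.91 points, −6.95 to −4.89) and in regions kept in epithelium (−2.59 points, −3.38 to −1.80). In the same bins of strength and GC content both differences turned, to 3.85 points (2.32 to 5.38) and 2.55 points (1.76 to 3.35). These bins were open at their ends, so the match was partial. When the 21158 embryonic shared regions were cut into 5 bins by their weaker −log10 q, the core was in 5.4%, 6.10%, 9.89%, 15.9% and 27.9% of them from the weakest to the strongest. The strongest bin, with values from 9.68 to 96.5, exceeded the weakest by 22.5 points (21 to 24). With the short motif the same difference was 5.74 points (4.65 to 6.84). Of the 542 regions with a weaker −log10 q of at least 25, 157 (29.0%) held it, and of the 10 strongest regions 2 did, those near Syngr1 and Rngtt. In the Rngtt sequence above the core is the stretch ccactagatggc. Over the same bins Maf ran between 23.4% and 27.4%, Tead between 13.9% and 17.2%, and Sox between 15.9% and 20.9%. The promoter share fell from 13.9% to 8.85% and the median GC content from 53% to 50%.

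**Figure D4:**
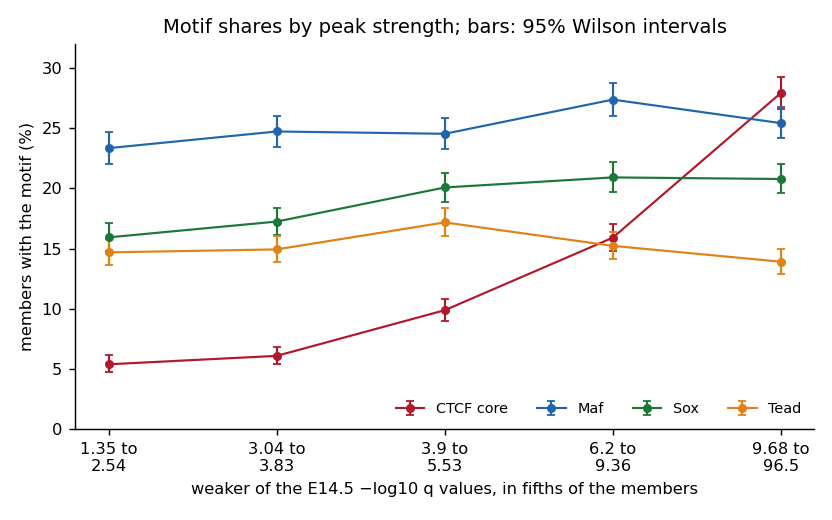
Share of embryonic shared regions (%) with the CTCF core, Maf, Sox and Tead motifs in 5 bins of the weaker E14.5 −log10 q, with 95% Wilson intervals. The CTCF core climbs from 5.4% to 27.9%, while Tead ends at 13.9%.

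Several motifs were concentrated at the summit. The density of CTCF matches within 50 bp of the summit of embryonic shared regions was 2.89 times that at 400 to 500 bp, and at 50 to 100 bp it was 1.19 times. Ap4 was 2.21 times as dense, AP-2 2.07, Maf 1.99, Tead 1.73 and Meis 1.58 times. In constant regions CTCF matches were 3.1 times as dense at the summit and 2.28 times at 50 to 100 bp, and AP-2 matches 2.19 times. There Maf was 1.45 and Tead 1.21 times as dense, and CCAAT-box, a promoter motif, 7.43 times against 1.22 times in embryonic shared regions. Homeobox and Gata matches were sparse at the summit, at 0.26 and 0.55 times the density farther out, and in constant regions at 0.18 and 0.31 times.

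The strongest embryonic shared regions lay outside promoters and mostly outside genes. The region with the highest weaker −log10 q was chr6:51172375-51173483, 1109 bp wide and 260 kb upstream of Nfe2l3, with a −log10 q of 96.5 in epithelium and 117 in fibers and fold enrichments of 29.9 and 29.4. Its nearest P0.5 peak was 1145 bp away. The region in an intron of Cwc22, which codes for a splicing factor, chr2:77910358-77911157, had 209 in epithelium and 79.5 in fibers, the highest epithelial value of all, and no P0.5 peak within 34.7 kb. The intronic region of Coro2b, an actin binding protein, chr9:62510283-62510902, had 72.0 in epithelium and 221 in fibers. A region 725 kb downstream of the start of Dach1, a partner of Eya1 and other eye factors, chr14:97444210-97444521, had 75.1 and 70.6, with the nearest P0.5 peak 99491 bp away. A region near Mapre2 had 73.5 and 160 but was 59.5% repeat-masked around the summit. Those near Syngr1, Rngtt, Npl and Fmnl2 had 59.5 to 62.6 in epithelium and 63.4 to 109 in fibers. The Syngr1 region was 61.5% repeat-masked. By −log10 q, fiber values exceeded epithelial values in 8 of the 10. By fold enrichment the epithelial value was the higher for Nfe2l3, Cwc22, Dach1, Syngr1 and Npl, and the fiber value for the others.

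At promoters the strongest region was that of Cox7b on the X chromosome, a subunit of cytochrome c oxidase, with its summit 15 bp upstream of the start and a −log10 q of 56.5 in epithelium and 160 in fibers. Its nearest P0.5 peak was 3392 bp away. The region 1308 bp upstream of Lin28a, an RNA binding protein of early embryonic cells that blocks the maturation of let-7, had 53.5 and 91.7 and was 1571 bp wide, with a P0.5 peak 774 bp away. The others were near Gm15319 (53.5 and 169), Nepro (50.5 and 73.6) and Arhgef1 (44.7 and 79.5). The Gm15319 region was 62 kb from that gene's start, at the promoter of another transcript.

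Among the widest embryonic shared regions, those near Pgam2 (4142 bp) and Gapdh (3928 bp), glycolytic enzymes, Sfrp1 (3568 bp), a Wnt antagonist, and H3f3b (3328 bp), a histone gene, had 3.83 to 11.4 in epithelium and 22 to 72.1 in fibers. In each of these 4 the fiber value was the higher.

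The genes near embryonic shared regions, like those near the other classes, mostly had open promoters at birth. For the 18751 embryonic shared regions outside promoters, the promoter of the nearest gene was open in epithelium for 90.7% at E14.5 and 88.2% at P0.5, and in fibers for 91.7% and 85.8%. It was open in both P0.5 lists for 83.1% and in neither for 9.14%. For regions in all 4 lists outside promoters, the last 2 shares were 81.2% and 9.56%. Over all genes, 14413 had a promoter peak in both E14.5 lists, and 335 of these (2.32%) had none in either P0.5 list.

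Of 20923 protein-coding genes, 8506 (40.7%) were nearest to at least 1 embryonic shared region, 988 to at least 5, 226 to at least 10 and 39 to at least 20. Long genes can hold more regions, and a count was not corrected for length. Trpm3, a cation channel gene of 856 kb that hosts Mir204, had the most, 86 of its 238 regions (36.1%). Of the 103 Trpm3 regions with both E14.5 peaks, 86 had no peak at birth, 7 kept P0.5 epithelium, 5 kept P0.5 fibers and 5 were in all 4 lists. Their −log10 q ran from 1.62 to 40.4 in epithelium (median 4.66) and from 1.92 to 103 in fibers (median 5.4). Crim1, a transmembrane protein that binds BMPs and is needed for lens epithelial adhesion, had 46 of 102 regions (45.1%), and all but 4 of the 46 had their summits in introns. The Crim1 values ran from 2.3 to 23 in epithelium and from 1.92 to 52.2 in fibers. With equal numbers of peaks, Trpm3 had 23 regions and Crim1 22.

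Ank2, which codes for an ankyrin that links the membrane to the cytoskeleton, had 52 of 278 regions (18.7%), Arid1b, a subunit of BAF chromatin remodelling complexes, 40 of 150 (26.7%), and Foxp1, a forkhead factor, 35 of 193 (18.1%). Cdh2, the N-cadherin of lens cells, had 34 of 153 (22.2%), Cadm1, an adhesion molecule, 34 of 240 (14.2%), Tenm3 32 of 171, Slit3 31 of 154 and Ccdc182 31 of 137. With equal numbers of peaks, Ank2 had 17, Foxp1 9, Arid1b 8 and Cdh2 7. Of these 10 genes, 8 had a promoter peak in all 4 lists. Tenm3 had one in E14.5 fibers only, and Ccdc182 in every list but E14.5 epithelium.

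Of 11006 windows of 200 kb with any region, 300 held at least 10 embryonic shared regions. The densest, chr17:78200001-78400000, held 68 among 141 regions (48.2%) over Crim1 and Fez2, beside 12 regions in all 4 lists. By nearest start site 43 of the 68 went to Crim1 and 25 to Fez2. The gene body of Crim1, which lies in this window, held 68 by overlap. The next, chr19:22600001-22800000, covered the part of Trpm3 with Mir204 and held 44 of 103, with 1 region in all 4 lists, and its neighbour chr19:22800001-23000000 held 38 of 121. The window chr11:88400001-88600000 over Msi2 held 37 of 141, of which 21 were nearest to the start of Ccdc182, and chr7:29200001-29400000 around Dpf1, which is not among the 10 genes with most regions, held 33 of 104.

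Relative to the number of their regions, genes with few regions led. Among genes with at least 8 regions, C1ql3, Elob and Fgl2 had 5 of 9, Akr1d1, Lat2 and Meox1 5 of 10, and Adam19, Adra1d, Lcp2 and Mettl8 4 of 8. Akr1d1, Lcp2 and Meox1 had no promoter peak in any list.

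The gene lists were compared by the share of their regions that were embryonic shared regions, beside 11.4% over all genes, with no test. Of 20 lists, 12 lay above that share. The lens capsule and matrix list, the basement membrane that lens cells lay down, had the highest, 91 of 490 regions (18.6%). The order at the top depended on the setting. Lists are compared here within each setting, not with the 11.4% of all genes. Surface ectoderm and cornea markers lay above capsule and matrix with equal numbers of peaks (12.7% and 10.6%) and with a q threshold stricter than 0.05 in every list (25% and 21.6%). With start sites within 50 kb alone, lens transcription factors (16.8%) and surface ectoderm (16.25%) lay above it (16.15%), and when regions had to overlap the gene, lens transcription factors did (20.1% and 18.3%). Of the 19 capsule and matrix genes 12 had at least 1. The type IV collagen genes Col4a2 (18 of 94) and Col4a1 (14 of 63), the linker nidogen Nid1 (17 of 37) and the laminin chain Lamb1 (11 of 47) had most, while Col4a3 to Col4a6, Lamb2, Fn1 and Dag1 had 0. Nid1 had a promoter peak in every list but P0.5 fibers, and of its 24 regions with both E14.5 peaks 17 were embryonic shared regions. The strongest of them, in an intron, had a −log10 q of 12.5 in epithelium and 17.6 in fibers.

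Lens transcription factors had 186 of 1177 regions (15.8%), and 18 of 21 genes had at least 1. Sox1, a SoxB1 factor of fibers, had 23 of 157, Zeb2 22 of 112, Prox1, which drives fiber elongation and crystallin genes, 20 of 118, and Sox2, a lens induction factor, 18 of 113. Maf had 13 of 129 and Pax6 13 of 68. Foxe3, which keeps epithelial cells proliferating, had 3 of 15, and Pitx3, Mafg and Hsf4 had 0. The strongest Prox1 region, in an intron 9.87 kb downstream of its start, had 18.2 in epithelium and 29.0 in fibers, and a P0.5 peak lay 818 bp from it. Of the 37 Pax6 regions with both E14.5 peaks, 13 were embryonic shared regions, 18 kept P0.5 epithelium, 0 kept P0.5 fibers alone and 6 were in all 4 lists. Early eye and placode factors reached 15.8% (66 of 417), led by Sox2, Eya1 (9 of 36), Six3 (7 of 38) and Dach1 (6 of 24). Sox2, Eya1 and Six3 are also in the lens transcription factor list, so these lists are not independent.

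Among the signalling lists, whose intervals overlap, FGF and ERK, the signal that drives fiber differentiation, had 76 of 507 regions (15.0%), in 18 of 19 genes. The receptor Fgfr2 had 19 of 117 and the inhibitors Spred2 and Spry1 13 of 62 and 6 of 33. The strongest Spred2 region, 93.6 kb upstream of its start, had 30.8 in epithelium and 82.5 in fibers. Notch reached 14.0% (55 of 393), with the ligand Jag1 at 18 of 60, Hey1 at 7 of 50 and Notch1 at 6 of 37. Hippo reached 12.6% (29 of 231), with Tead1 at 19 of 85 and Yap1 at 4 of 18. Wnt (11.2%, 95 of 846) and BMP and TGF-beta (11.1%, 80 of 721) lay at the share of all genes, with Fzd1 at 12 of 48 and Smad7 at 14 of 109. With equal numbers of peaks, where 7.37% of all regions were embryonic shared regions, Notch fell to the other side of the background at 5.22%, and cell cycle and replication moved above it at 7.78%. The intervals of capsule and matrix (10.6%, 7.5 to 14.8) and lens transcription factors (10.4%, 8.30 to 13) still lay above the background, while those of early eye factors (10.4%, 7.27 to 14.6) and FGF and ERK (8.12%, 5.42 to 12) held it.

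Cadherins and actin cytoskeleton had 14.2% (117 of 823), of which Cdh2 gave 34 and the ephrin gene Efna5 29, so that 2 of its 21 genes held more than the other 19. With equal numbers of peaks the share was 8.14% (5.83 to 11.3), an interval that held the 7.37% of all regions. Chromatin regulators had 13.6% (53 of 389), with 24 at Chd7 and 9 at Dnmt3a. Cell cycle and replication genes had 10.7% (45 of 422), led by the cyclin Ccnd2 at 6 of 16.

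With regions assigned to the nearest start site, the intervals for the genes of the mature fiber held the share of all genes. Lens crystallins had 28 of 243 (11.5%), with 8 of 38 at Cryaa and 6 of 75 at Cryba4, and lens fiber proteins 32 of 346 (9.25%), with 8 of 88 at the filament gene Bfsp2. The strongest Cryaa region lay 5.53 kb upstream of its start and had 8.36 in epithelium and 15.5 in fibers. Crybb2, Crygb and Crygd had 0, and Cryab had 0 of its 1 region. Crybb1 was nearest to 0 merged regions, although its promoter had a peak in all 4 lists, so its count was fixed by the assignment. With equal numbers of peaks the crystallin share was 6.34%, below the 7.37% of all regions.

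Among markers of other cell types, surface ectoderm and cornea had 16.3% (17 of 104), with Perp, a desmosome gene, at 4 of 9. Retinal pigment and melanocyte markers had 12.4% (17 of 137), but 5.56% with start sites within 50 kb alone and 2.08% when regions had to overlap the gene or its promoter. Blood and macrophage markers had 12.3% (8 of 65), of which 6 were near Ptprc, and 6.67% with start sites within 50 kb alone. Periocular mesenchyme markers had 11.3% (22 of 194). Skeletal muscle markers had 10.5% (10 of 95), retina and neural markers 7.21% (8 of 111) and endothelial markers 6.28% (12 of 191). These lists are short and their intervals wide. Counted only over regions with both E14.5 peaks, where 34.5% of all such regions were embryonic shared regions, the share was highest for retinal pigment and melanocyte markers, at 17 of 34. It was 46.4% for capsule and matrix (91 of 196), 46.1% for cadherins and actin (117 of 254), 44.7% for surface ectoderm (17 of 38), 43.4% for FGF and ERK (76 of 175), 41% for lens transcription factors (186 of 454), 34.8% for lens fiber proteins (32 of 92), 33.7% for crystallins (28 of 83), 21.8% for endothelial markers (12 of 55) and lowest for retina and neural markers, at 8 of 42.

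**Figure D5:**
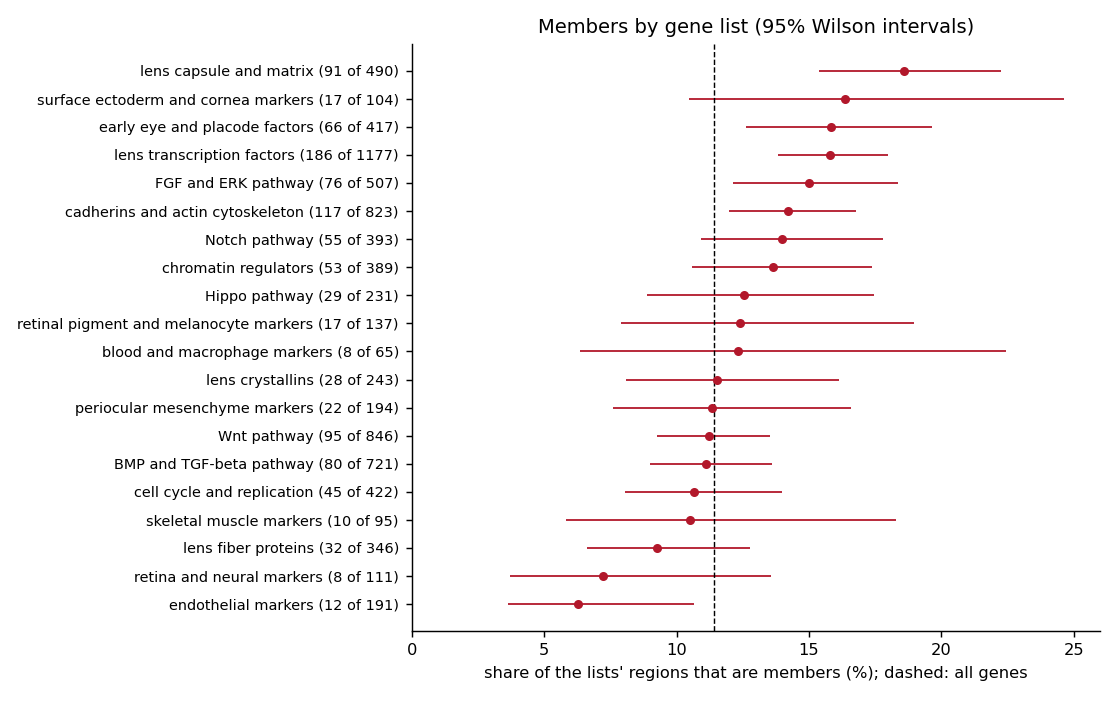
Share of the merged regions nearest to the genes of each of 20 lists that were embryonic shared regions (%), with 95% Wilson intervals and the numbers behind them. The dashed line is the 11.4% of all genes, and the lens capsule and matrix list lies highest at 18.6%.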

How the data were processed

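Peak lists of 4 groups were analysed, each from 2 pooled ATAC-seq libraries. The authors trimmed reads with Trim Galore 0.4.1, mapped them to mm10 with Bowtie2 2.3.3.1, processed them with SAMtools 1.2 and Picard 2.1.1, and called peaks with MACS2 2.1. The deposited fold enrichment is a ratio of peak height over surroundings, and the deposited −log10 q values are those of MACS2. Depth per library is not in the lists. Equal numbers of peaks were taken by −log10 q, with ties in genome order. The tool versions are those of the submitters' processing notes. The p-values, peak score and blacklist were not used here, and 0 columns of values stayed unassigned.

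Regions were merged with bedtools 2.31.1 and placed on 45657 curated RefSeq transcripts of 26089 genes (GRCm38). Bases came from the RefSeq genome through samtools 1.23.1 and pysam 0.24.0. Strength and GC content were matched in part, by weighting the comparison regions to 5 bins of the embryonic shared regions, with open end bins. Code was tested on simulated data. The regions, gene lists and motifs were chosen with earlier results of these data known. Genes were named by rule: the 10 strongest, 5 strongest promoter and 5 widest regions, the 10 genes with most regions, up to 4 of each list, the 5 densest windows of 200 kb, and the 10 genes with the highest share among at least 8 regions. Other genes were named after their values were seen. Alternatives were other q values, equal peak numbers, merge distances, promoter widths, windows and gene assignments. Some items that the rules would name are not reported here.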

Additional observations from a re-analysis of the deposited data

How the results depend on the processing

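No paired analysis was possible because both libraries of a group were pooled before peaks were called, and for the same reason no replicate could be left out. The pooled lists give no spread between animals, and the part of read depth, which the lists do not hold, was not tested. The number of embryonic shared regions was 8384 with equal numbers of peaks in each list, against 21158, and between 15775 and 21210 under the other 6 alternatives. The promoter, CG and repeat differences from constant regions, the CTCF core by strength and the Tead deficit against regions kept in P0.5 epithelium kept their direction under every alternative run. The CTCF difference was 5.74 points with the short motif. The 83.1% of nearest genes with promoters open in both P0.5 lists was 78.5% with the stricter q threshold and 81.6% with promoters of 1 kb. The median summit offset was 34.5 bp with the stricter q threshold. Of the lists, 9 to 13 lay above all genes. The 17 motifs above constant regions became 4 (Ap4, Maf, RXR and Zeb) when all regions, promoters included, were matched on GC content, and the cause was not tested. The sign turned there for Nfat (−1.32 points), Pitx (−1.15) and Tead (−2.00), with intervals below 0, and for Fox (−0.46), Homeobox (−0.081), Hsf (−0.24), NF1 (−0.77) and Runx (−0.27), with intervals that held 0. It turned outside promoters for Ap4 (−1.72), NF1 (−0.99) and Zeb (−1.49), and for Tead (−0.40) with an interval that held 0. At the same peak strength it turned for Zeb (−5.06), and for Ap4 (−0.12) and NF1 (−0.34) with intervals that held 0.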
